A study of Mus musculus with 4 samples.

Results

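The nuclear lamina and the LINC complex carry force from the cytoskeleton to the nucleus, and 10 of their genes are described here in hair follicle stem cells (HF-SCs) of mouse back skin. They were taken by name, as the lamin genes *Lmna*, *Lmnb1* and *Lmnb2*, the SUN genes *Sun1* and *Sun2*, the nesprin genes *Syne1*, *Syne2* and *Syne3*, and the inner nuclear membrane genes *Emd* and *Lbr*, where the authors' mean normalized count was above 0. All 10 met this rule, among 17044 genes with a mean above 0 in a table of 24421 genes. RNA-seq was performed on 2 control and 2 *miR-205*-induced libraries, from mice labelled C57BL/6 at postnatal day 44, 2 d after the start of doxycycline chow at day 42. The induced mice carried *miR-205* under a doxycycline-responsive promoter (pTRE2) together with *Krt14*-rtTA, so that the transgene depended on keratin 14 expression, and the mice of both groups carried *Krt14-H2b-GFP*. The transgenic line was made in FVB mice. Controls are labelled untreated, whereas the extraction protocol has both groups fed doxycycline, so the controls' diet cannot be settled here. Control genotypes beyond the GFP allele, and which of several transgenic lines was used, are not stated, and nothing says which mice were pooled. HF-SCs were sorted as live cells with high H2BGFP, α6 integrin and CD34 and without Sca1.

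Lamins are intermediate filament proteins that form a meshwork under the inner nuclear membrane. *Lmna* encodes the A-type lamins A and C by alternative splicing, and *Lmnb1* and *Lmnb2* encode the B-type lamins. In the LINC complex, SUN proteins of the inner nuclear membrane bind the KASH domains of nesprins of the outer membrane, which in turn bind actin, microtubule motors or, through plectin, intermediate filaments. Emerin (*Emd*) and the lamin B receptor (*Lbr*) sit in the inner membrane and tether the lamina and chromatin. A-type lamins are known to increase with tissue stiffness, and nuclei with little of them are soft.

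The deposited values used were the authors' mean normalized counts, averaged over all 4 libraries. The authors' own comparison of the groups in the same table was not used, so induced and control mice are not compared here. The mean is stored with 15 significant digits, and 1 read in a given library always adds the same amount to it. Where this mean lay between 0 and 1000, as it did for 14591 genes, exactly 1 set of 4 whole read counts gave the deposited digits. The reads per library were therefore recovered for these genes, which include 6 of the 10 members. Nothing in this column says which library belongs to which group. The libraries are named A to D from the deepest to the shallowest, with size factors of 1.24, 1.18, 0.966 and 0.716, and no library is treated as a control or an induced one. Total depth per library is unknown, and the means of all genes sum to 13085835 normalized counts. Intervals of single libraries are exact Poisson 95% intervals. Those of ratios are exact binomial 95% intervals on the reads of the pair of libraries compared. Both cover counting error only. Each ratio takes the highest and the lowest library, picked after the values were seen. Its interval therefore does not hold its stated coverage, lies too far above a ratio of 1, and is no test of a difference.

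The sorted population carried its defining markers at high levels. All 9 markers of hair follicle stem cells were present, with means from 3192 for *Lhx2* to 146090 for *Krt5*, and *Cd34*, used in the sort, had a mean of 14575. Markers of other cell types were at unequal levels within each list. Fibroblast markers were mostly high, with means of 5186 for *Col1a1*, 4699 for *Col1a2*, 3397 for *Col3a1* and 662 for *Dcn*, but 39.5 for *Pdgfra*. Among sebaceous markers *Scd1* had 3085 and *Pparg* 21.99, and among myeloid markers *Cd74* had 2744 and *Itgam* 35.6. Some of these reached the range of the stem cell markers. Per kilobase of exon, *Cd74* had 1946, *Col1a1* 790 and *Scd1* 638, while stem cell markers ran from 432 for *Lgr5* to 67049 for *Krt15*. Muscle markers were at or near 0 (*Des* 7.34, *Ckm* 3.00, *Acta1* 1.83 and *Myh4* listed at 0). In bulk samples fewer cells of a type and less RNA per cell cannot be told apart. The *Mir205* locus had 17, 8, 1 and 8 reads in libraries A to D. These reads do not measure the mature miRNA, and counts per gene do not tell the endogenous primary transcript from RNA of the transgene.

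The sequences that bear on the induced miRNA were examined in the 3′UTRs, because a miRNA pairs through its bases 2 to 8, the seed, mostly with 3′UTRs. The mature miRNA, from RefSeq on GRCm38.p6 (chr1:193507503-193507524, minus strand), is shown with the seed in capitals.
mmu-miR-205-5p: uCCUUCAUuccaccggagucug
A 7-base match to this seed reads ATGAAGG on the mRNA strand. In the longest annotated 3′UTR it was present in 0 of the 10 genes, and in 11.7% of 15130 genes with a mean above 0 and an annotated 3′UTR, whose median length was 1087 bases. The 3′UTRs of the members ranged from 739 bases for *Emd* to 2254 for *Syne1*. The absence of these letters from a window says nothing of pairing elsewhere.

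In *Syne1* the longest 3′UTR belongs to a short transcript that ends early. The other 3 of its 4 transcripts with a 3′UTR, the giant form among them, share a 3′UTR of 1804 bases that holds 1 match, in exon 144 of 144 of the giant form, 907 bases after the stop codon (NCBIM37, chr10:5325441-5325447, plus strand). It is shown with 8 bases on each side and the match in capitals.
Syne1 site: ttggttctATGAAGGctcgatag
A shorter match, TGAAGG, which pairs with bases 2 to 7 only, was present in the longest 3′UTR of 6 of the 10 genes and of 36.5% of the 15130 genes. The match in *Lmna* (NCBIM37, chr3:88285794-88285799, minus strand) lies in exon 12 of 12, and that in *Sun1* (chr5:139725124-139725129, plus strand) in exon 23 of 23. They are shown with the match in capitals, beside one of the 2 in *Lmnb2* (chr10:80365128-80365133, minus strand) and one of the 2 in *Emd* (chrX:71506553-71506558, plus strand).
Lmna site: ttttatacTGAAGGaaaaactc
Sun1 site: gtctctgcTGAAGGgggaacac
Lmnb2 site: tctgaatcTGAAGGgtttataa
Emd site: gaaactagTGAAGGcgtttaag
In *Syne2* the match lies in the 3′UTR of 1 of 5 transcripts, and in *Syne3* (chr12:106169373-106169378, minus strand) in all 3. That *Syne2* transcript has 17 exons and the longest 3′UTR of the gene, and its match lies in exon 14, 67 bases after the stop codon. The 3′UTRs of the other *Syne2* transcripts do not hold it. Among transcripts with a 3′UTR, the TGAAGG sites shown lie in 1 of 3 for *Lmna*, 3 of 7 for *Sun1*, 1 of 2 for *Lmnb2* and 1 of 5 for *Emd*. *Sun2*, *Lmnb1*, *Lbr* and *Syne1* held neither match in the longest 3′UTR. These matches are descriptions of sequence, and their relation to the levels in induced and control mice was not examined.

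*Lmna* dominated the set. Its mean of 36907 normalized counts placed it at percentile 99.8 of all genes with a mean above 0, and per kilobase of exon, the scale on which genes of different length can be set side by side, its level was 8680 at percentile 99.6. By comparison *Actb*, cytoplasmic β-actin, had 9813 per kilobase and *Cd34* had 5561. The gene lies on the minus strand (NCBIM37, chr3:88285070-88313878). The mean of *Lmna* was too high for reads per library to be recovered, and gene counts do not separate lamin A from lamin C.

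The B-type lamins were expressed at a far lower level. *Lmnb1* had a mean of 195 and *Lmnb2* a mean of 169, or 65.7 and 39.3 per kilobase, beside a median of 39.7 per kilobase over 16181 genes with a mean above 0 and an annotated length. Per kilobase, the mean of *Lmna* was 132 times that of *Lmnb1* and 221 times that of *Lmnb2*. Of the summed lamin level per kilobase, 98.8% was *Lmna*, 0.748% *Lmnb1* and 0.448% *Lmnb2*. *Lmnb2* lies on the minus strand (NCBIM37, chr10:80363948-80380990) and *Lmnb1* on chromosome 18. With coding length in place of exon length the share of *Lmna* was 98.9%, so the choice of length did not alter this picture.

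**Figure D1:**
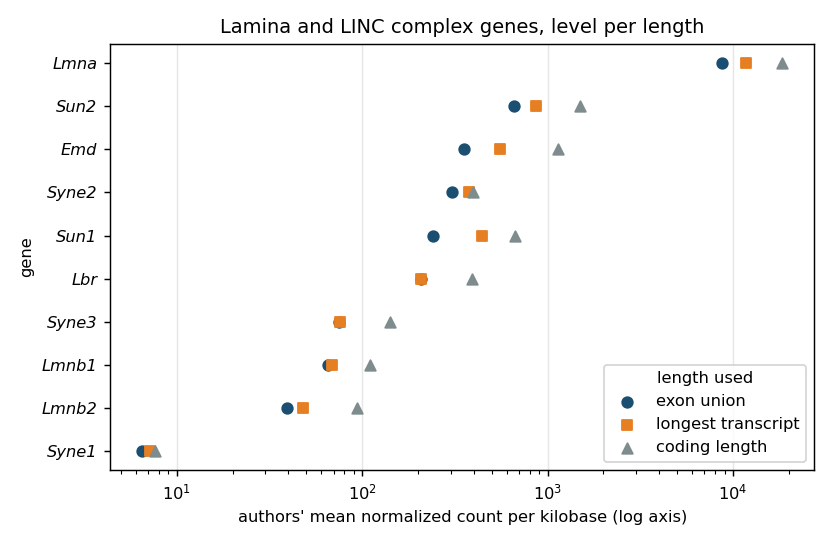
Authors' mean normalized count per kilobase (log axis) for each of the 10 genes, with the length taken as the union of exons, the longest transcript or the coding sequence. *Lmna* lies above all others at 8680 per kilobase of exon and *Syne1* lies lowest at 6.49, whichever length is used.

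Between the SUN proteins, which span the inner nuclear membrane, *Sun2* was the more abundant. *Sun2* had a mean of 3280 and *Sun1* a mean of 1838, or 660 and 242 per kilobase of exon. *Sun2* thus made up 73.2% of the summed level of both genes, and 66.0% with the longest transcript as the length. *Sun1* lies on the plus strand (NCBIM37, chr5:139676591-139725794) and *Sun2* on the minus strand (chr15:79554500-79572966). The other SUN-domain genes were nearly silent, with *Spag4* at a mean of 2.41, *Sun3* at 0.551 and *Sun5* listed at 0.

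Among the nesprins, the giant actin-binding *Syne2* was predominant. Its mean was 8177, against 202 for *Syne1*, a gene of similar length that also encodes a giant actin-binding nesprin. Per kilobase of exon, *Syne2* had 306, *Syne3* 74.9 and *Syne1* 6.49, so that *Syne2* stood 47.1 times above *Syne1*. *Syne3*, whose product binds plectin, made up 19.3% of the summed level of these nesprins, *Syne2* 79.0% and *Syne1* 1.68%. The sum leaves out *Syne4*. With coding length the share of *Syne3* was 25.9%. *Syne1* (NCBIM37, chr10:4795849-5326338) and *Syne2* (chr12:76919121-77211913) lie on the plus strand and *Syne3* (chr12:106168159-106248019) on the minus strand. Short transcripts of *Syne1* and *Syne2* are annotated too, and counts per gene do not tell them from the giant forms.

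The other KASH genes were low. *Lrmp* had a mean of 12.9, *Syne4*, which encodes the nesprin that binds kinesin, had 8.75, and *Ccdc155*, which acts in meiosis, had 5.06. None of the 6 further SUN and KASH genes had a mean over 50, whereas all 10 members did. These means are not scaled by length. Per kilobase of exon, *Syne4* had 6.46, about the level of the much longer *Syne1* at 6.49.

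Of the inner nuclear membrane proteins outside the LINC complex, *Emd* had a mean of 886 and *Lbr* of 739, or 352 and 208 per kilobase of exon. *Emd* lies on the plus strand of the X chromosome (NCBIM37, chrX:71500026-71506887) and *Lbr* on the minus strand of chromosome 1 (chr1:183745447-183772532). Of the exon bases of *Emd*, 13.6% also lie in the exons of a pseudogene on the same strand, *Gm14686*, and how reads shared by both were counted is not stated. *Sun2* shares 2.96% of its exon bases with a lincRNA on the opposite strand, and whether the counting used strand is not given in the sources used here.

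The order of the 10 genes per kilobase was *Lmna*, *Sun2*, *Emd*, *Syne2*, *Sun1*, *Lbr*, *Syne3*, *Lmnb1*, *Lmnb2* and *Syne1*. Neighbouring genes were told apart in some places only. With each of the 3 lengths, *Lbr* was above *Syne3* and *Lmnb2* above *Syne1* in 4 of 4 libraries. *Emd* was above *Sun1* in 4 of 4 libraries with each length too, but only with the most even set of *Sun1* reads. The other neighbours depended on the length. *Sun1* was above *Lbr* in 3 of 4 libraries with the exon union and in 4 of 4 with the longest transcript or the coding length. *Syne3* was above *Lmnb1* in 3 of 4 libraries with the exon union, in 2 of 4 with the longest transcript and in 4 of 4 with the coding length. *Lmnb1* was above *Lmnb2* in 4 of 4 libraries with the exon union or the longest transcript and in 2 of 4 with the coding length, where the ratio of their means was 1.17 in place of 1.67. These last 3 pairs were therefore not set apart. The values of *Sun1* rest on a choice among sets of reads, given with its reads. *Syne2* and *Sun1* changed places when the longest transcript or the coding length was used. For *Lmna*, *Sun2* and *Syne2* only the mean was available.

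The reads recovered for single libraries varied more for *Lbr*, *Lmnb1* and *Syne1* than for *Lmnb2*, *Syne3* and *Emd*. *Lbr* had 908, 683, 538 and 825 normalized counts in libraries A to D, from 1123, 805, 520 and 591 reads. Library A was highest and C lowest, and the former was 1.69 times the latter (95% interval 1.52 to 1.88). Of the 6 pairs of libraries, 5 had intervals that did not overlap. *Lbr* encodes both a tether of heterochromatin and a sterol reductase of cholesterol synthesis.

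*Lmnb1* had 133, 243, 231 and 172 normalized counts in libraries A to D, from 165, 286, 223 and 123 reads. Library B was highest and A lowest, with a ratio of 1.82 between them (95% interval 1.496 to 2.216). The intervals of 3 of the 6 pairs were separate. *Lmnb2*, the other B-type lamin, had 154, 186, 149 and 186 normalized counts, and no pair of libraries had separate intervals. The level of *Lmnb1* over *Lmnb2*, per kilobase of exon, was 1.26 in A, 1.89 in B, 2.24 in C and 1.34 in D. Per kilobase of coding length it was 0.880, 1.32, 1.57 and 0.937.

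*Syne1* had 155, 224, 285 and 145 normalized counts in libraries A to D, from 192, 264, 275 and 104 reads. Library C was highest and D lowest. The ratio of the highest to the lowest was 1.96 (95% interval 1.56 to 2.48), and the intervals of 4 of 6 pairs were separate. *Syne3* was steadier, with 394, 455, 389 and 419, a ratio of 1.17 (95% interval 1.02 to 1.34) and no pair with separate intervals. *Syne3* was accordingly 14.3, 11.4, 7.70 and 16.2 times *Syne1* per kilobase in A to D.

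**Figure D2:**
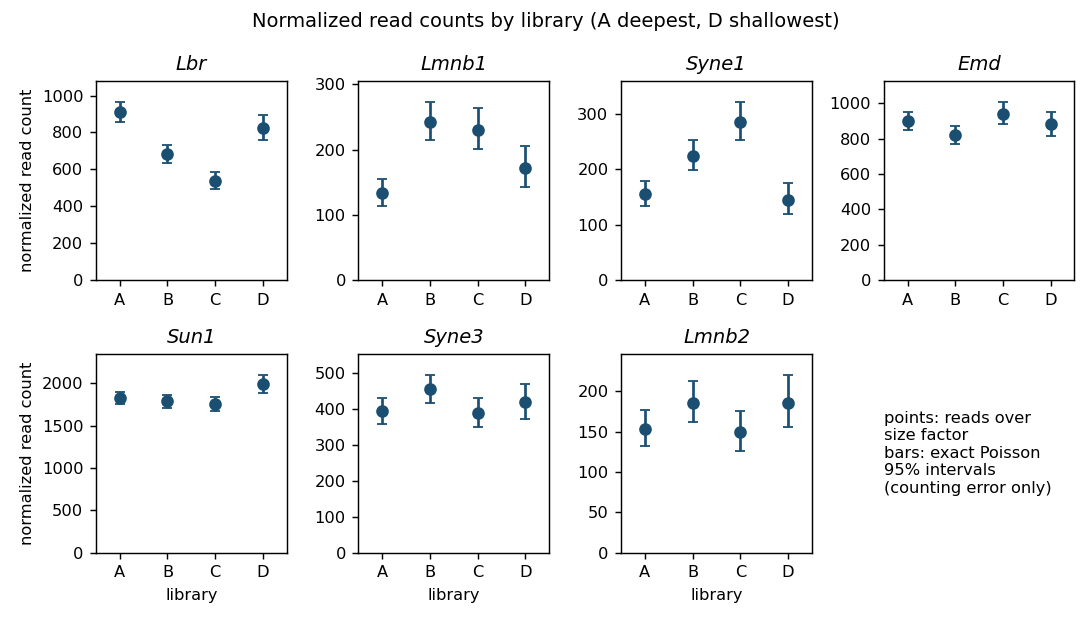
Normalized read counts (reads over size factor, axes from 0) of 7 genes in libraries A to D, with exact Poisson 95% intervals as bars. *Lbr* is highest in A, *Lmnb1* in B and *Syne1* in C, and *Emd*, *Syne3* and *Lmnb2* are nearly level, while the values of *Sun1* are the most even of 3 possible sets.

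*Emd* had 899, 820, 943 and 882 normalized counts in libraries A to D, with a ratio of 1.15 (95% interval 1.05 to 1.26), and 1 pair of libraries, B and C, had separate intervals. *Sun1* lies above the limit at which the digits give 1 solution. For it 3 sets of whole reads were possible, and the most even one gives 1824, 1785, 1754 and 1989 normalized counts. In the other sets the highest library was 9.06 or 23.8 times the lowest. A ratio of 9 or more was found in 5 of the 6420 genes with a mean between 100 and 1000, or 0.0779%, so the even set was taken, with a ratio of 1.13. These genes have lower means than *Sun1*, and since the set was taken for its evenness, the ratio is no measure of how steady *Sun1* was.

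Among those 6420 genes the median ratio of the highest to the lowest library was 1.28. The 6 members in this range had a median of 1.47. *Syne1* exceeded 95.7% of the genes, *Lmnb1* 94.1% and *Lbr* 91.3%, whereas *Lmnb2* exceeded 42.1%, *Syne3* 20.7% and *Emd* 16.1%. These percentages describe the libraries and are no test, since both groups are mixed in the ratio and low counts widen it.

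**Figure D3:**
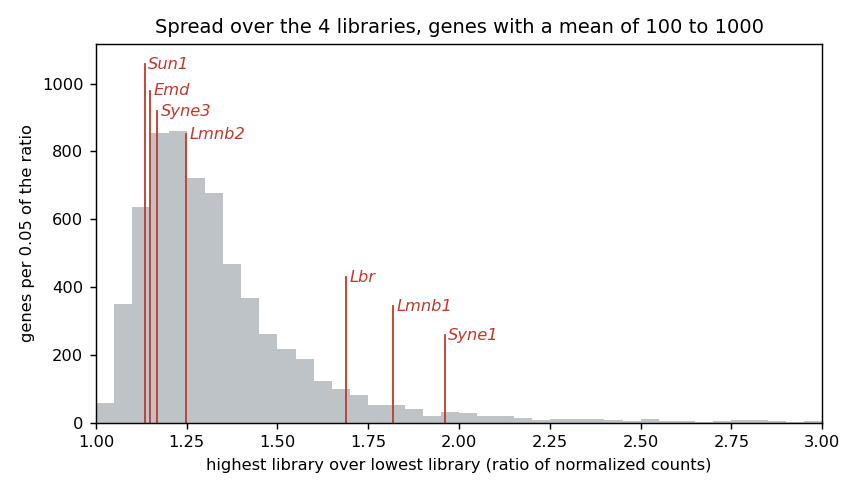
Histogram of the ratio of the highest to the lowest library for genes with a mean of 100 to 1000 (59 genes at or above 3 not drawn), with red lines at the 6 members whose reads were recovered and at *Sun1*. *Lbr*, *Lmnb1* and *Syne1* lie in the upper tail, and the place of *Sun1*, at 1.13, follows from taking the most even of its 3 sets of reads.

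Markers of other cell types moved among the same libraries. The 4 myeloid markers with recovered reads summed to 478, 1198, 848 and 458 normalized counts in A to D, highest in B as *Lmnb1* was. The defining marker *Ptprc*, the pan-leukocyte gene CD45, had 57.4, 132, 99.3 and 61.4. The 4 melanocyte markers summed to 830, 668, 1949 and 335, highest in C as *Syne1* was. Markers of fibroblasts, for 2 genes, summed to 864, 616, 848 and 479, and those of sebaceous cells, for 3 genes, to 666, 542, 523 and 335. Both were highest in A, as *Lbr* was. The 3 endothelial markers summed to 92.2, 91.6, 113 and 39.1, highest in C. The 3 muscle markers above 0 summed to 19.4, 16.1, 10.3 and 2.79, highest in A. How often lists and genes share a highest library was not counted. The part of these cell types in the levels of *Syne1*, *Lmnb1* and *Lbr* was not tested.

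Proliferation genes were chosen after the values of *Lmnb1* had been seen. Of the 3 with recovered reads, 2 ranked the libraries as *Lmnb1* did. *Pcna*, with a mean of 3116, was above the limit for recovery. *Mki67*, the Ki67 antigen, had 281, 780, 437 and 429 normalized counts in A to D, and *Mcm2*, a replication licensing factor, had 120, 310, 238 and 195. *Top2a*, a mitotic topoisomerase, had 257, 713, 343 and 402. For *Mki67* and *Mcm2* the order was A, D, C and B from low to high, as for *Lmnb1*, and *Top2a* had C below D. The values of *Mki67* in C and D were nearly equal, and the intervals of *Lmnb1* in B and C overlapped. How many of all genes share this order was not counted. The part of proliferation genes in the level of *Lmnb1* was not tested.

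The partners of the lamina were all expressed. All 14 genes of the list of inner nuclear membrane and lamina partners had a mean over 50, with a median of 178 per kilobase over those with a length, and the most abundant were *Tmem43* (mean 3926), which encodes an emerin-binding membrane protein, *Tor1aip2* (2234), an activator of torsin, and *Tmpo* (1205), which encodes the LAP2 proteins. Their reads, recovered for 10 of them, summed to 4596, 4292, 4276 and 4417 normalized counts in A to D. The ratio of the highest to the lowest library had a median of 1.22 over these genes. *Tor1aip1*, which binds lamins and activates torsin, was named after its values were seen, since it ranked the libraries as *Lbr* did, with 1156, 837, 828 and 991. Its values in B and C were nearly equal. How many of all genes share this order was not counted, and a link to *Lbr* was not tested.

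The enzymes that mature the tails of prelamin A and the B-type lamins were present as well. *Icmt*, which methylates the farnesylated cysteine, had a mean of 744, *Fnta*, a subunit of the farnesyltransferase, had 619 and *Zmpste24*, the protease that cleaves prelamin A, had 567. Across the 5 genes of this list the ratio of the highest to the lowest library had a median of 1.15 and ran from 1.10 for *Fnta* to 1.29 for *Rce1*.

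On the cytoplasmic side, genes whose products bind nesprins or the structures they link to were among the most abundant. *Actg1* and *Actb* had means of 99962 and 26289, and *Plec*, the plectin that nesprin-3 binds, had 14153, or 781 per kilobase, against 74.9 per kilobase for *Syne3*. All 8 genes of this list had a mean over 50. *Dync1h1*, the dynein heavy chain, had 9048. *Fhod1*, a formin that binds the product of *Syne2*, was the lowest of the 8 at 133.

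**Figure D4:**
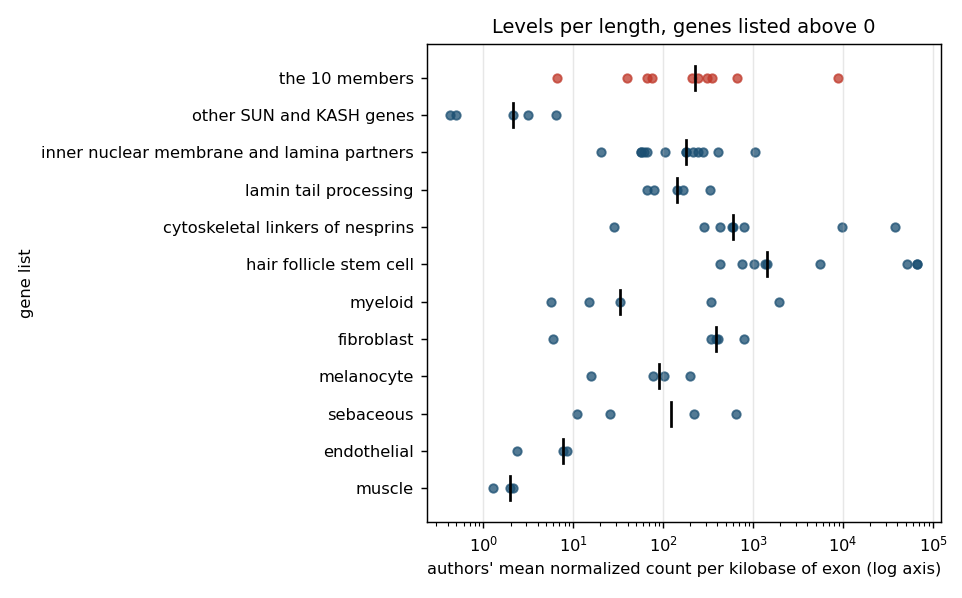
Authors' mean normalized count per kilobase of exon (log axis) for the 10 genes in red and for each gene list in blue, with a black line at the median of those genes with a mean above 0. The members span 6.49 to 8680, the other SUN and KASH genes lie at or under 6.46, and the lamina partners lie between 20.3 and 1050.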

How the data were processed

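RNA-seq reads of 2 control and 2 *miR-205*-induced HF-SC libraries were aligned by the authors with HISAT2 2.1.0, converted with SAMtools 1.3.1, counted per gene with HTSeq and compared with DESeq2. The labels name the build mm10, and the methods name NCBI37 and mm10 together. The deposited table gives a mean normalized count, a signal averaged by the authors over 4 libraries after division by size factors, and the authors' own comparison (fold change, its standard error, test statistic and p-values). The comparison columns were not used, and the table has 0 columns of values per sample. No test between groups was run.

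Reads per library were solved from the digits of the mean. The value of 1 read in each library was taken from the 4 lowest means, and all 4-fold combinations of whole reads within the rounding of the last digit were searched for means below 1000. Tested on simulated data with means below 1000, the search recovered 2915 of 2915 genes exactly. The simulated data included, for each library, a planted gene with 1 read in that library only. The step that reads the value of 1 read from the 4 lowest means was therefore not tested. Size factors recomputed from the recovered reads by the median of ratios differed from those in the digits by at most 2.14%. Recovered genes hold 20.5% of the summed means.

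Lengths and 3′UTRs came from GENCODE vM1 on NCBIM37, matched by symbol for 20653 rows and by synonym for 1329, and *Syne3* was matched by its neighbours *Clmn* and *Glrx5* (listed as *4831426I19Rik*). No coordinate was converted. Genes named are the members and, of the 4 lists of SUN and KASH genes, lamina partners, tail enzymes and cytoskeletal linkers, the 3 highest means and those at 0. Cell type markers, proliferation genes and further genes were named after their values were seen. The members and lists were chosen with earlier results of these data known. Alternatives were other lengths, filters of 10 and 50, other scaling, each library left out and other 3′UTRs. Coding length was that of the longest annotated coding sequence, not of a reference protein as planned. Tools were numba 0.67.0, scipy 1.17.1, numpy 2.4.6, pandas 2.3.3 and matplotlib 3.10.9 under Python 3.11.15.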

Additional observations from a re-analysis of the deposited data

How the results depend on the processing

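No paired analysis was possible because the deposited mean does not say which library carries which replicate number. All 10 members had a mean over 10 and over 50. The median percentile of the members was 82.4 among genes with a mean above 0, 76.4 among those over 10 and 71.0 among those over 50. The median level per kilobase was 225 with the exon union, 292 with the longest transcript and 395 with the coding length, and 2 members, *Syne2* and *Sun1*, changed places under both other lengths. The number of members with a seed match was 0 in the longest 3′UTR, 1 in the shortest (*Syne1*) and 6 with the 6-base match. It was also 0 in the longest 3′UTR among protein-coding transcripts. The seed match in the giant form of *Syne1* lies outside the longest 3′UTR and is in neither count of 0. Without each library in turn the median level was 782 to 836 and the median ratio of the highest to the lowest library 1.21 to 1.25, and scaling to the total of recovered reads gave 1.25. The ratio of *Lbr* was 1.33 without library C, that of *Syne1* 1.54 without C, that of *Lmnb1* 1.41 without A and that of *Sun1* 1.04 without D. The values of *Sun1*, also in the median ratio, are those of the most even of 3 sets of reads. Libraries could not be left out for *Lmna*, *Sun2* and *Syne2*. Depth limits the members with few reads, and the induced and control groups were not compared.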

Other observations

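Among markers of other cell types, *Lyz2*, a lysozyme of myeloid cells, had 234, 769, 523 and 272 normalized counts in libraries A to D, and *Dct*, a melanin synthesis enzyme, had 388, 394, 1041 and 170. The melanocyte list had a median ratio of the highest to the lowest library of 5.95, against 1.22 for the lamina partners.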
